A study of Homo sapiens with 6 samples.

Results

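The genes described here are 40 genes of homologous recombination, the Fanconi anemia pathway and the DNA damage checkpoint, chosen by name. All 40 were found among the 58735 genes listed. They were measured by RNA-seq in HCT116, a human colorectal carcinoma cell line that lacks DNA mismatch repair. The CTR group held 3 libraries of control cells, labelled wild type, and the miR-8485 group held 3 libraries of HCT116 cells given a miR-8485 mimic at 50 nM. Cells were collected 48 h after transfection. The mimic is a synthetic RNA meant to act as the miRNA. Its sequence was not compared with that of the mature miRNA. The sequence and dose of the control RNA are not given in the sources used here. All groups share 1 cell line and 1 time point. The comparison asks where MMS22L and TONSL, partners in a complex that acts at replication forks, stand among the other genes of fork repair.

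Homologous recombination copies an intact sister chromatid to mend broken DNA. Ends are resected to expose a strand, which, with the help of BRCA1, PALB2 and BRCA2, then invades the intact copy. The Fanconi anemia pathway starts with a ubiquitin ligase, the core complex, which marks the FANCD2-FANCI clamp at DNA crosslinks so that they can be cut out and repaired by recombination. Many of these genes are expressed mainly in S and G2 phase, when a sister chromatid is present, and dividing cells depend on them where replication forks stall.

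The sequences that bear on the comparison are the mimic and its matches in the 3′ UTRs. A miRNA recognizes mRNAs mainly through its seed, bases 2 to 8, shown in capitals in the mimic, and TGTGTGT is the word that pairs with this seed. The longest run of alternating T and G in the MMS22L 3′ UTR is shown next from its start, followed by sites in BARD1, RMI2, FANCF and CHEK1, with 1 copy of TGTGTGT in capitals. The mimic sequence was taken from the supplementary methods. The others come from the 3′ UTRs of the canonical transcripts of GENCODE release 44 on GRCh38.
miR-8485 mimic: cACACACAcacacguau
MMS22L, minus strand, chr6:97145050-97145076: tatgtgttttTGTGTGTgtgtgtgtgt
BARD1, minus strand, chr2:214728031-214728057: ttggttttttTGTGTGTgtggtaaaaa
RMI2, plus strand, chr16:11351041-11351067: cttcctggttTGTGTGTgttaattctc
FANCF, minus strand, chr11:22623511-22623537: atatttgtttTGTGTGTaggaacctag
CHEK1, plus strand, chr11:125655554-125655580: tatttcttcaTGTGTGTttagtatctg
MMS22L held 21 overlapping copies of TGTGTGT in a 3′ UTR of 4645 bases, with a run of alternating T and G of 42 bases. BARD1 held 3 copies, RMI2 held 2, and 8 further genes of the list held 1 each. The remaining 29 genes, TONSL among them, held none. At least 1 copy was present in 11 of the 40 genes, or 27.5%, against 28.9% of the 10672 tested genes with a canonical 3′ UTR. At least 5 copies were present in MMS22L alone among the 40, and in 4.79% of the tested genes. With the longest annotated 3′ UTR of each gene in place of the canonical one, 18 of the 40 genes, or 45%, held a copy. The share was 31.4% of 10676 tested genes, and MMS22L was again the only one of the 40 with at least 5. These longest 3′ UTRs had a median of 2248 bases in the 40 genes and 1790 bases in the tested genes. For the canonical ones the medians were 1011 and 1287 bases.

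The libraries held 17473874 to 18480047 fragments on listed genes. Compared in pairs, libraries of the same group differed by a chi-square per gene of 2.89 to 12.5 and libraries of different groups by 75.5 to 86.7. CTR replicate 1 stood somewhat apart, at 12.5 and 9.97 from the other CTR libraries, while the remaining pairs within a group were at 2.89 to 4.31. Counting error alone gives about 1, so each library was counted as a sample of its own. Values are FPKM, fragments per kilobase of gene scaled by the library total. The gene length used for MMS22L, 21793 bases, equals all its annotated exonic bases, which 1 transcript need not contain. Levels of different genes can therefore be compared only roughly, and ratios of 2 genes are read for their shift between the groups. Of the epithelial markers fixed for the label, EPCAM, KRT8, KRT18, KRT19, CDH1 and CLDN4 were present at 18.7 FPKM or more in every library. Of the blood, endothelial and fibroblast markers, CD3E and DCN were at 0, PTPRC, PECAM1, CDH5 and COL3A1 were at most 0.0855 FPKM, and COL1A1 lay between 4.05 and 6.40 FPKM and was higher in miR-8485. Differences are log2 fold changes of FPKM + 0.1, miR-8485 minus CTR, from limma over the 12349 genes with a mean of at least 1 FPKM, with Benjamini-Hochberg adjustment over all of them. A gene is said to have risen or fallen at an adjusted p under 0.05. Since FPKM is relative to the library, fewer cells that express a gene and less RNA per cell cannot be told apart.

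Among the 40 genes, 36 reached a mean of 1 FPKM. Of these, 19 fell and 7 rose in miR-8485, and 10 did neither. Without CTR replicate 1, 19 fell and 6 rose, with a median log2 fold change of -0.38. In percentages, 52.8% fell and 19.4% rose, while over all genes tested 30.5% fell and 29.1% rose, together 59.6%. The 36 genes had a median log2 fold change of -0.38, and all genes tested had -0.0041. A fall by at least 0.5 on the log2 scale was seen in 14 genes, or 38.9%, against 15.0% of all genes tested. The list did not move as a block. Fold changes of the 36 genes ran from -1.22 for FANCI to 0.95 for FANCF, with an SD of 0.53 across genes and a median standard error of 0.09. Across all genes tested the SD was 0.61 and the median standard error 0.08, so the list was not more spread than the rest. The 3 miR-8485 libraries lay entirely below the 3 CTR libraries for 22 genes and entirely above them for 7, together 80.6%. Over all genes tested these shares were 34.0% and 32.5%, together 66.5%. Rescaling to TPM, in which each library has the same total per length, moved the median of all genes tested to -0.12 and that of the list to -0.49. On that scale 38.2% of all genes tested fell and 21.2% rose. Of the list 22 genes fell and 3 rose. XRCC3, TOP3A and RMI1 were added to those that fell, with adjusted p of 0.0164, 0.0159 and 0.0368 in limma, and FANCL, PALB2, ATRIP and ATM were no longer called, with adjusted p of 0.146, 0.116, 0.0589 and 0.144 in limma.

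**Figure D1:**
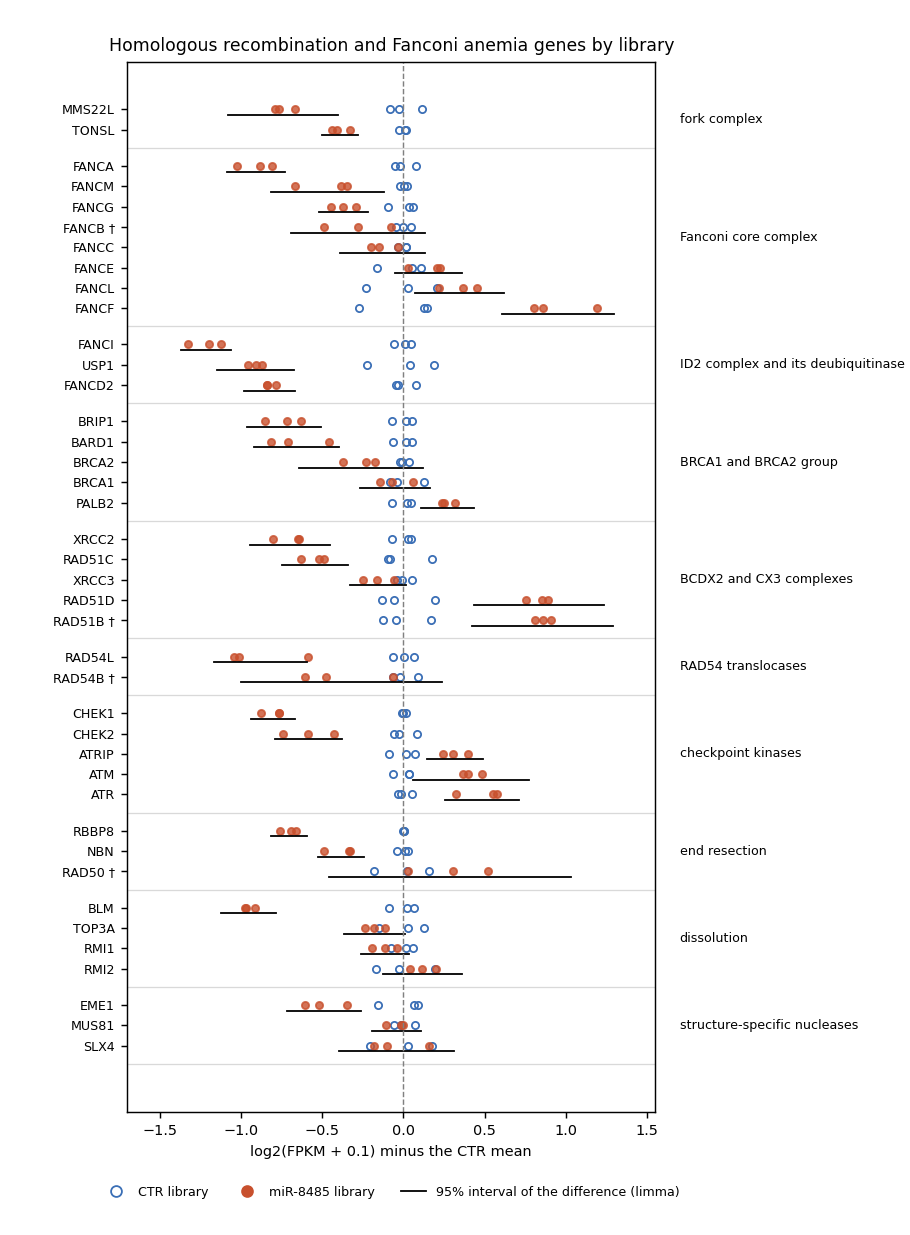
Change of each of the 40 genes, grouped by role, on the scale of log2(FPKM + 0.1) with the mean of the CTR libraries set to 0. Open points are CTR libraries, filled points are miR-8485 libraries and bars are 95% intervals of the difference from limma. The genes marked † had a mean below 1 FPKM and were fitted with every gene above 0. FANCI, FANCD2 and USP1 lie to the left, while FANCF, RAD51B, RAD51D, ATR, ATM, FANCL, ATRIP and PALB2 lie to the right.

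The MMS22L-TONSL complex promotes recombination at stalled replication forks, and TONSL recognizes newly deposited histone H4. MMS22L had 1.63, 1.81 and 1.57 FPKM in CTR and 0.920, 0.936 and 1.01 FPKM in miR-8485, from 360 to 713 fragments per library. TONSL had 19.8, 19.7 and 19.2 FPKM in CTR and 15.5, 14.3 and 14.7 FPKM in miR-8485. The groups did not overlap for either gene, with the miR-8485 libraries lower. The same held for 34.0% of all genes tested, and 30.5% of them fell. MMS22L fell to 57.3% of CTR, by 0.74 on the log2 scale with a standard error of 0.15 (adjusted p = 0.00337, limma). TONSL fell to 76.1% of CTR, by 0.39 with a standard error of 0.05 (adjusted p = 0.000341, limma). Both calls held under every alternative that tested them, at -0.85 to -0.45 for MMS22L and -0.51 to -0.32 for TONSL. The 2 genes lay closer together under some of these. With a pseudocount of 1 MMS22L was at -0.45 and TONSL at -0.37, and with the gene length trend removed at -0.56 and -0.32. The ratio of MMS22L to TONSL was 0.0824, 0.0920 and 0.0818 in CTR and 0.0591, 0.0653 and 0.0688 in miR-8485, so that all miR-8485 libraries had less MMS22L per TONSL. The log2 ratio differed by -0.41 (exact permutation test, two-sided, p = 0.1, the smallest that 3 libraries against 3 allow). Placed by size among the 36 tested genes, the fall of MMS22L was close to those of BRIP1 and RBBP8 and smaller than those of the clamp genes.

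In the Fanconi core complex, which joins 8 genes of the list, 3 fell, 2 rose and 2 did neither among the 7 tested. Over all genes tested 30.5% fell and 29.1% rose, and the groups did not overlap for 66.5%. FANCA, a scaffold subunit, had 6.29, 6.88 and 6.42 FPKM in CTR and 3.68, 3.49 and 3.15 FPKM in miR-8485. With no overlap between the groups, FANCA fell to 52.7% of CTR, or by 0.91 on the log2 scale (standard error 0.08, adjusted p = 5.45e-05, limma). Of its annotated exonic bases 19.6% are shared with ZNF276. FANCG, which binds FANCA, was the core gene with the highest level and fell from 10.9, 11.9 and 12.1 FPKM to 8.50, 9.48 and 8.96 FPKM, by 0.37 on the log2 scale (standard error 0.06, adjusted p = 0.00201, limma). FANCF, the small adaptor subunit that ties parts of the core complex together, went the other way. It had 2.56, 1.89 and 2.53 FPKM in CTR and 4.09, 5.39 and 4.27 FPKM in miR-8485, so all miR-8485 libraries were higher. FANCF rose by 0.95 on the log2 scale (standard error 0.15, adjusted p = 0.0011, limma), the highest value of the 36 tested genes, at 197% of CTR, from 101 to 288 fragments per library.

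FANCM, the translocase that brings the core complex to DNA, fell with a log2 fold change of -0.47 (adjusted p = 0.0286, limma). Its call was lost without CTR replicate 1 (adjusted p = 0.0565), CTR replicate 2 (0.0747), CTR replicate 3 (0.0702) or miR-8485 replicate 3 (0.0789). FANCL, the ubiquitin ligase subunit itself, rose with a log2 fold change of 0.34 (adjusted p = 0.0349, limma). That call was lost without CTR replicate 2 (0.0816), CTR replicate 3 (0.0694), miR-8485 replicate 1 (0.0877) or miR-8485 replicate 2 (0.106). FANCC and FANCE were not called, with 95% intervals of -0.39 to 0.13 and -0.05 to 0.36. FANCB, at a mean of 0.967 FPKM and 50 to 72 fragments per library, had a log2 fold change of -0.28 when every gene above 0 was fitted and was not called (adjusted p = 0.347, limma).

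The FANCD2-FANCI clamp is the substrate of the core complex, and USP1 is the enzyme that removes its ubiquitin. All 3 genes fell, with no overlap between the groups. Of all genes tested, 30.5% fell, and 34.0% had all miR-8485 libraries below all CTR libraries. FANCI had 12.1, 11.6 and 12.5 FPKM in CTR and 4.75, 5.47 and 5.21 FPKM in miR-8485. It fell by 1.22 on the log2 scale, to 42.6% of CTR (standard error 0.07, adjusted p = 9.6e-06, limma), the steepest fall of the list. USP1 had 15.6, 14.1 and 11.7 FPKM in CTR and 7.25, 7.44 and 7.0 FPKM in miR-8485, a fall by 0.91 on the log2 scale (standard error 0.10, adjusted p = 0.000203, limma). Its CTR libraries were spread widely, and leaving out any of the 6 libraries gave values between -1.03 and -0.82. FANCD2 fell to 55.6%, or by 0.82 (standard error 0.07, adjusted p = 4.76e-05, limma). The clamp partners did not keep their ratio, since FANCD2 per FANCI was 0.393 to 0.417 in the CTR libraries and 0.494 to 0.568 in the miR-8485 libraries.

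In the BRCA1 and BRCA2 group, 2 of 5 genes fell and 1 rose, beside 30.5% and 29.1% of all genes tested. BARD1, the partner of BRCA1 in a ubiquitin ligase that acts at broken DNA, had 3.15, 3.24 and 2.98 FPKM in CTR and 1.73, 1.87 and 2.25 FPKM in miR-8485. BRIP1, a helicase that binds BRCA1, had 2.87, 3.13 and 3.05 FPKM in CTR and 1.62, 1.79 and 1.91 FPKM in miR-8485. Neither gene overlapped between the groups, and the log2 fold changes were -0.66 (standard error 0.11, adjusted p = 0.00168) for BARD1 and -0.74 (standard error 0.10, adjusted p = 0.000474) for BRIP1 in limma. BRCA1 itself lay between 2.98 and 3.47 FPKM in CTR and between 2.85 and 3.30 FPKM in miR-8485. These ranges overlap, with a log2 fold change of -0.05 and a 95% interval of -0.27 to 0.16 (adjusted p = 0.646, limma), and the sign turned without CTR replicate 2 (0.011). BRCA1 per BARD1 was 0.944 to 1.07 in CTR and 1.27 to 1.77 in miR-8485. PALB2, which bridges BRCA1 and BRCA2, had 3.10, 3.14 and 2.90 FPKM in CTR and 3.61, 3.82 and 3.64 FPKM in miR-8485. This was a rise by 0.27 on the log2 scale (standard error 0.07, adjusted p = 0.0119, limma), again with no overlap. BRCA2, which acts on the resected strand, had 263 to 273 fragments per CTR library and 212 to 232 per miR-8485 library. Its log2 fold change of -0.26, with a 95% interval of -0.65 to 0.12, was not called (adjusted p = 0.206, limma), but it was called without the variance trend (0.0157) and in voom on recovered fragments (0.0368).

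The BCDX2 complex of RAD51B, RAD51C, RAD51D and XRCC2 and the CX3 complex of RAD51C and XRCC3 assist recombination. Members of the same complex went in opposite directions. Among the 4 genes that reached a mean of 1 FPKM, 2 fell, 1 rose and 1 did neither. Over all genes tested 30.5% fell and 29.1% rose, and the groups did not overlap for 66.5%. RAD51D had 0.736, 0.782 and 0.948 FPKM in CTR and 1.45, 1.60 and 1.56 FPKM in miR-8485, from 150 to 336 fragments per library. Every miR-8485 library was above every CTR library, and RAD51D rose to 187%, by 0.83 on the log2 scale (standard error 0.17, adjusted p = 0.0043, limma). RAD51B had 0.504, 0.643 and 0.539 FPKM in CTR and 1.06, 1.09 and 1.14 FPKM in miR-8485. Again the groups did not overlap. At a mean of 0.829 FPKM it was fitted with all 31768 genes above 0, of which 22.1% were called, 10.8% as higher and 11.3% as lower, and it rose there by 0.86 on the log2 scale (standard error 0.18, adjusted p = 0.0164, limma). With the replicate number as a block its adjusted p was 0.0529. RAD51C, the gene of these complexes with the highest level, had 10.1, 8.34 and 8.40 FPKM in CTR and 6.33, 6.20 and 5.73 FPKM in miR-8485, a fall by 0.54 on the log2 scale (standard error 0.09, adjusted p = 0.00118, limma). XRCC2 fell by 0.70 (standard error 0.10, adjusted p = 0.000925, limma). RAD51D per XRCC2 was 0.297, 0.338 and 0.377 in CTR and 1.07, 1.06 and 1.02 in miR-8485, the widest shift among the 10 partner pairs compared. XRCC3 had a log2 fold change of -0.16 and was not called (adjusted p = 0.102, limma). It shares 76.7% of its annotated exonic bases with KLC1, and how fragments in shared bases were counted is not given in the sources used here.

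RAD54L and RAD54B encode translocases that help the resected strand to invade the intact copy. RAD54L had 7.68, 7.04 and 7.36 FPKM in CTR and 4.87, 3.51 and 3.60 FPKM in miR-8485. It fell to 54.2% of CTR with no overlap, by 0.88 on the log2 scale (standard error 0.12, adjusted p = 0.000645, limma). RAD54B had 0.637, 0.583 and 0.562 FPKM in CTR and 0.398, 0.562 and 0.356 FPKM in miR-8485, that is 36 to 61 fragments per library. Its groups overlap, and the log2 fold change of -0.38 with a 95% interval of -1.0 to 0.24 was not called (adjusted p = 0.41, limma). Of its annotated exonic bases RAD54B shares 66.0% with FSBP, and RAD54L shares 19.9% with LRRC41.

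Of the 5 checkpoint genes of the list, 2 fell and 3 rose, beside 30.5% and 29.1% of all genes tested. Within these 5, the sensor kinases and their effector kinases differed in direction. ATR is the kinase that senses exposed DNA strands at stalled forks, ATRIP is its partner, and CHEK1 is the kinase that ATR activates. ATM senses broken DNA and activates CHEK2. CHEK1 had 6.96, 6.84 and 6.88 FPKM in CTR and 4.01, 3.71 and 4.01 FPKM in miR-8485, and it fell by 0.80 on the log2 scale (standard error 0.06, adjusted p = 2.78e-05, limma). CHEK2 had 6.86, 6.72 and 7.40 FPKM in CTR and 5.17, 4.61 and 4.14 FPKM in miR-8485, a fall by 0.59 (standard error 0.09, adjusted p = 0.000944, limma). Neither effector overlapped between the groups. CHEK1 shares 13.4% of its annotated exonic bases with other genes. ATR, ATRIP and ATM rose instead. ATR went from 2.08, 2.11 and 2.22 FPKM to 3.18, 2.69 and 3.22 FPKM, a rise by 0.48 (standard error 0.10, adjusted p = 0.00374, limma). ATRIP, which shares 26.7% of its annotated exonic bases with TREX1, rose by 0.32 (standard error 0.07, adjusted p = 0.0078, limma). The ratio of ATR to ATRIP, 0.558 to 0.664 in CTR and 0.639 to 0.731 in miR-8485, overlapped between the groups. ATM rose by 0.42 (standard error 0.15) close to the threshold (adjusted p = 0.0475, limma), with no overlap between the groups. Its call was lost with any of the 6 libraries left out, at log2 fold changes of 0.38 to 0.44 and adjusted p from 0.0682 without CTR replicate 1 to 0.135 without miR-8485 replicate 3.

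The end resection genes open the way to recombination. RAD50 and NBN belong to the MRN complex, which binds broken ends, and RBBP8, also known as CtIP, starts the cut with it. RBBP8 had 13.8, 13.8 and 13.8 FPKM in CTR and 8.11, 8.50 and 8.66 FPKM in miR-8485. The CTR libraries were nearly identical, and RBBP8 fell to 61.1%, by 0.70 on the log2 scale (standard error 0.05, adjusted p = 2.08e-05, limma). NBN fell by 0.38 (standard error 0.06, adjusted p = 0.00122, limma), from 9.39, 9.55 and 9.10 FPKM to 7.39, 7.43 and 6.64 FPKM. RAD50 had few fragments assigned to it, 34, 42 and 48 in CTR and 42, 55 and 70 in miR-8485, and its log2 fold change of 0.28 had a 95% interval of -0.46 to 1.03. The groups overlap, and RAD50 shares 76.9% of its annotated exonic bases with other genes. If fragments in shared bases were left uncounted, these values understate its level. The third MRN subunit, MRE11, is not among the 40 genes but among the other pathway genes counted further on, and it is named here because of its value. It had a mean of 1.80 FPKM in CTR and 3.86 FPKM in miR-8485, giving a log2 fold change of 1.06 (adjusted p = 0.000242, limma).

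The dissolution complex of BLM, TOP3A, RMI1 and RMI2 takes apart crossed DNA junctions without crossover. Of its 4 genes BLM, the helicase, was called, while TOP3A and RMI1 were called only after rescaling to TPM or, for TOP3A, without CTR replicate 1. Of all genes tested 59.6% were called. BLM had 4.85, 5.0 and 4.48 FPKM in CTR and 2.39, 2.49 and 2.38 FPKM in miR-8485, and it fell to 50.6% with no overlap, by 0.95 on the log2 scale (standard error 0.07, adjusted p = 3.37e-05, limma). TOP3A, the topoisomerase, had 5.92, 6.70 and 7.18 FPKM in CTR and 5.57, 5.80 and 6.07 FPKM in miR-8485, which overlap. Its log2 fold change of -0.18 (adjusted p = 0.0946, limma) was past the threshold without CTR replicate 1 (-0.25, adjusted p = 0.0176). RMI1, a structural subunit, had 8.79, 8.24 and 9.07 FPKM in CTR and 7.59, 8.02 and 8.47 FPKM in miR-8485, giving a log2 fold change of -0.12 with a 95% interval of -0.26 to 0.03. RMI2 had 0.12 with an interval of -0.12 to 0.36. The difference between BLM and its partners was not tested.

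The nucleases that cut such junctions are built on the SLX4 scaffold, with MUS81 as the catalytic subunit and EME1 as its partner. EME1 had 5.27, 5.37 and 4.51 FPKM in CTR and 3.94, 3.27 and 3.47 FPKM in miR-8485, and it fell by 0.49 on the log2 scale (standard error 0.10, adjusted p = 0.00354, limma). MUS81 had 4.75, 5.20 and 4.90 FPKM in CTR and 4.89, 4.94 and 4.58 FPKM in miR-8485, with a log2 fold change of -0.04 and a 95% interval of -0.19 to 0.11. Its groups overlap. MUS81 per EME1 was 0.901 to 1.09 in CTR and 1.24 to 1.51 in miR-8485. EME1 shares 16.4% of its annotated exonic bases with LRRC59, and MUS81 shares 14.1% with CFL1 and EFEMP2. SLX4 had a log2 fold change of -0.04 with an interval of -0.40 to 0.31, and its sign turned without CTR replicate 3 (0.047) and without miR-8485 replicate 1 (0.028).

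**Figure D2:**
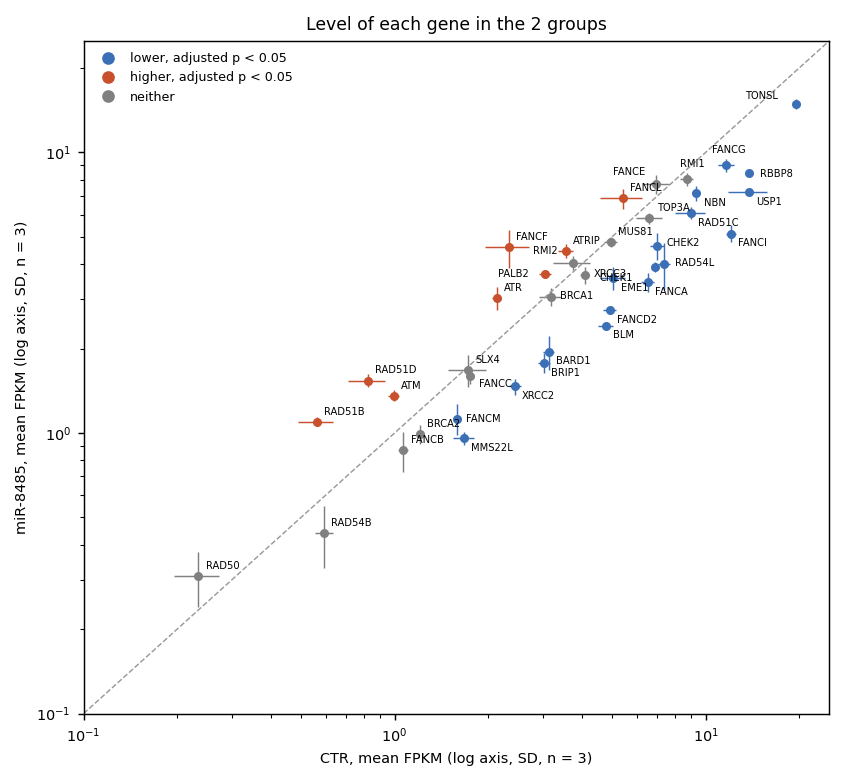
Mean FPKM of each of the 40 genes in CTR (horizontal axis) and miR-8485 (vertical axis), both on log axes, with bars for the SD of 3 libraries and a dashed line of equal level. Genes that fell lie below the line from FANCM at 1.58 FPKM to TONSL at 19.5 FPKM in CTR, and of the 8 genes that rose none was above 5.41 FPKM in CTR.

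**Figure D3:**
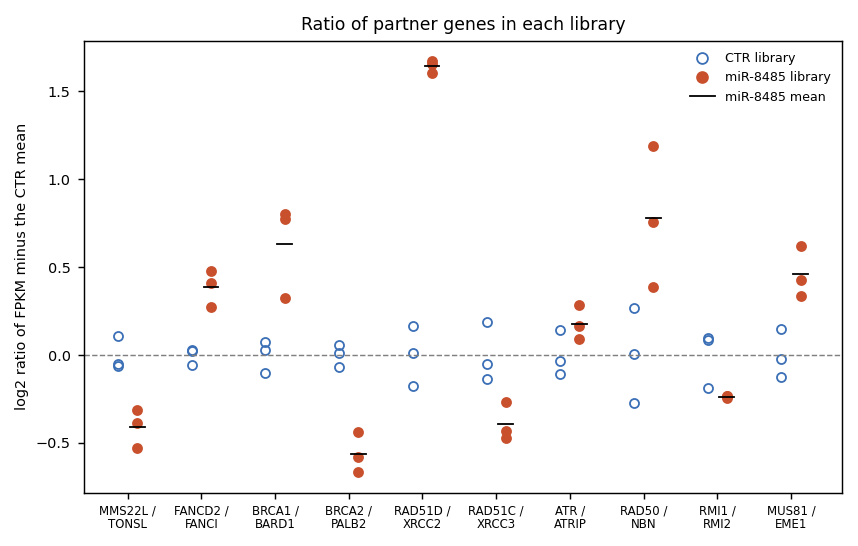
Ratio of the FPKM of partner genes in each library, as log2 with the mean of the CTR libraries set to 0; short lines mark the miR-8485 mean. RAD51D / XRCC2 moved most, by 1.65, and ATR / ATRIP was the only pair of the 10 whose groups overlapped. RAD50 / NBN is drawn but not read. For single genes, the groups did not overlap for 66.5% of all genes tested, and ratios of unrelated genes were not computed.

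The partner ratios gather the differences within complexes. Relative to their partners, MMS22L, BRCA2, RAD51C and RMI1 were lower in miR-8485, with shifts of the log2 ratio of -0.41 for MMS22L / TONSL, -0.56 for BRCA2 / PALB2, -0.39 for RAD51C / XRCC3 and -0.24 for RMI1 / RMI2. FANCD2, BRCA1, RAD51D and MUS81 were higher relative to theirs, by 0.39 for FANCD2 / FANCI, 0.63 for BRCA1 / BARD1, 1.65 for RAD51D / XRCC2 and 0.46 for MUS81 / EME1. The ratio of RAD50 to NBN is not read because of the few fragments of RAD50. With 3 libraries against 3 none of these shifts could pass an exact test, so they are given as descriptions. They concern mRNA, and protein was not measured here.

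Other genes of the same pathways were counted beside the list. Of 57 such genes taken by name, among them nuclease, shieldin and checkpoint clamp genes, 56 were listed and 54 tested, of which 21 fell and 10 rose. These are 38.9% and 18.5%, against 30.5% and 29.1% of all genes tested, with a median log2 fold change of -0.12. The range was wide, from -2.25 for MCM8, a helicase subunit that acts in recombination, to 1.06 for MRE11.

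Cell cycle markers fell in the same libraries, in which 30.5% of all genes tested fell and 29.1% rose. Of 34 S phase markers that are not in the list, 26 fell and 1 rose, with a median log2 fold change of -0.55, and their summed level was 836 to 869 FPKM in the CTR libraries and 583 to 616 FPKM in the miR-8485 libraries. Of 51 G2 and M phase markers, 46 fell and none rose, with a median of -0.76 and a summed level of 1796 to 1850 FPKM in CTR and 1053 to 1076 FPKM in miR-8485. Their part in the fall of the repair genes was not tested. The summed level of the 40 repair genes was 205 to 210 FPKM in CTR and 158 to 160 FPKM in miR-8485. Epithelial markers moved too, with 4 of 6 lower and a summed level of 2684 to 2915 FPKM in CTR and 1791 to 1878 FPKM in miR-8485, while EPCAM and CDH1 were not called.

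**Figure D4:**
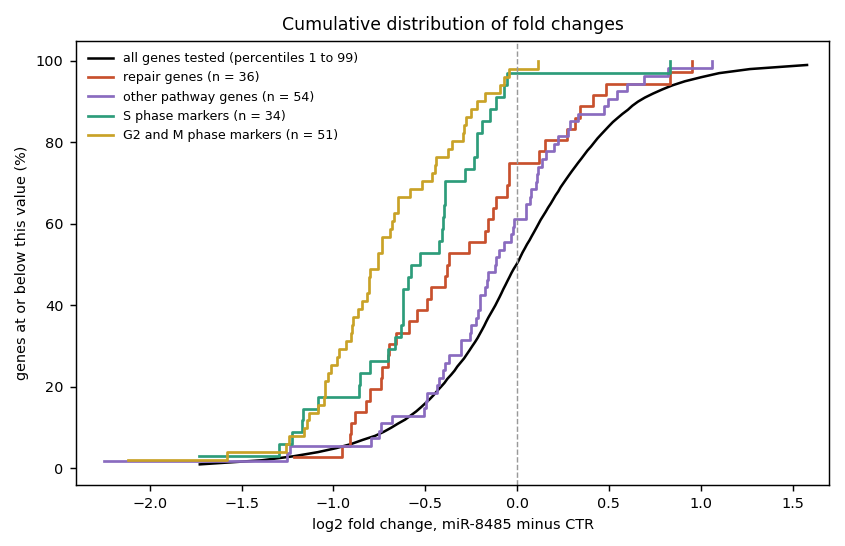
Cumulative share of genes (vertical axis, percent) at or below each log2 fold change (horizontal axis, miR-8485 minus CTR) for the 36 tested repair genes, 54 other genes of the pathway, the cell cycle marker lists and all genes tested. The curve of the repair genes, with a median of -0.38, lies between those of all genes tested and of the S phase markers near their middle. In the far left tail it does not, since 1 of the 36 repair genes, FANCI, lies below -0.98, the level of the 5th percentile of all genes tested.

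The number of seed matches was set beside the change of each gene. Among the tested repair genes, 14 of the 25 without a copy of TGTGTGT in the canonical 3′ UTR fell and 4 rose, with a median log2 fold change of -0.38. Of the 10 with 1 to 4 copies, 4 fell and 3 rose, with a median of -0.15. MMS22L, with 21 copies, fell by 0.74. Among the 10672 tested genes with a canonical 3′ UTR, 29.2% of those without a copy fell. With 1 to 4 copies 41.4% fell, and with at least 5 copies 60.3% fell. The medians were 0.02, -0.13 and -0.36, and 3′ UTR length was not taken into account. Spearman's rho between copies and fold change over the 36 repair genes was 0.06, as a description, with most genes tied at 0 or 1 copy. Both FANCF and RAD51D, which rose, held 1 copy, as did CHEK1 and USP1, which fell, and FANCI, BLM and FANCA, with steep falls, held none.

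**Figure D5:**
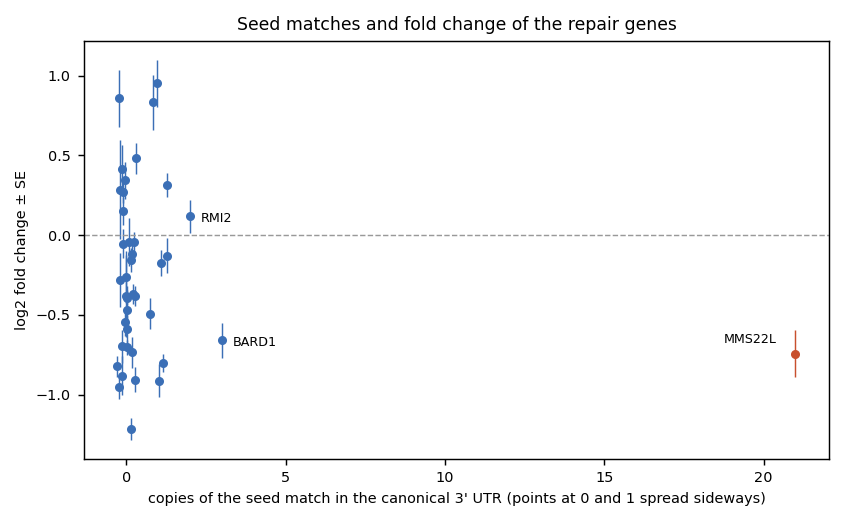
Log2 fold change of the 40 repair genes (vertical axis, with the standard error from limma) against the number of copies of TGTGTGT in the canonical 3′ UTR (horizontal axis). MMS22L stands apart with 21 copies, and the other 39 genes, with 0 to 3 copies, spread over the whole range of fold changes.

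Promoters were searched for words bound by cell cycle factors, as a description. RefSeq promoter windows on GRCh38.p14, from 250 bases before to 50 after the start, were matched for 35 of the 40 genes. TONSL, NBN, RAD54B, RMI2 and FANCI were not matched. The E2F words TTTCGCGC, TTTGGCGC, TTTCCCGC and TTTGCCGC, on either strand, were found in 4 of the 35 promoters, or 11.4%, against 5.67% of 8567 promoters of tested protein-coding genes and 3.31% of all 35116 promoters of this length. The word TTTGAA, the core of the CHR element of G2 and M phase genes, was in 3 of 35, or 8.57%, against 9.11% and 15.2%, and none of the E2F words contains it. TTTGAA was found in ATM, BRIP1 and FANCC. An E2F word of each of the 4 promoters is shown in capitals on the strand of the gene, and FANCC holds another that is not shown.
FANCA, minus strand, chr16:89816802-89816829: ctacaccgcgGCGGCAAAgccaaacgca
FANCC, minus strand, chr9:95317738-95317765: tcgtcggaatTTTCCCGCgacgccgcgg
FANCD2, plus strand, chr3:10026425-10026452: gtcgggcctgGCGGGAAAgtcgaaaact
XRCC2, minus strand, chr7:152676103-152676130: ggcgttggtgGCGGGAAAgttgagtctc
FANCA, FANCD2 and XRCC2 fell, while FANCC was not called. The other matched promoters held none of these E2F words in the window. They belong to genes that fell, such as BLM, BRIP1, RAD54L and CHEK1, and to genes that rose, such as FANCF, RAD51D and ATR. Whether E2F factors act on any of these genes was not tested.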

How the data were processed

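Total RNA of 3 independent biological replicates per group was sequenced. Per the study's methods and the labels, reads were trimmed by fastp, aligned by HISAT2 (2.0.5) on hg38 and assigned to genes by featureCounts (1.5.0-p3), versions as in the submitters' processing notes. The values the authors deposited are FPKM per library and gene lengths, with no further scaling. Whether the counting used strand is not given in the sources used here. All 6 libraries entered, grouped by title, and 0 columns were left without a sample.

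The study fitted a count model to raw counts by group. Since FPKM is not a count, log2(FPKM + 0.1) was tested here with limma 3.58.1 in R 4.3.3 (two-sided, variance trend, no covariate) on the 12349 genes whose mean reached an FPKM of 1. The 4 genes of the list below it, FANCB, RAD51B, RAD54B and RAD50, were fitted together with all 31768 genes above 0. Dividing out gene length and library total gave whole fragments for 100% of values under 5000 fragments, within 0.02 fragments plus rounding. These give the depth and feed voom, an alternative. The script was tested on simulated data. Python 3.11.15 was used otherwise.

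Library values were given for MMS22L, TONSL and, in each role group, the 2 genes with the largest change and the gene with the highest level. Values of a few further genes are given as well. Genes and lists were chosen with earlier results of these data known. A gene of the list of other pathway genes is not reported here. 3′ UTRs start after the stop codon. Shared exonic bases were computed from GENCODE release 44. Its exonic bases equal the deposited gene length for some genes, such as MMS22L and XRCC3. For others they do not, such as FANCL with 37977 bases against a deposited length of 2412. The annotation used for counting thus differed for some genes, and the shared percentages describe release 44. Alternatives were other pseudocounts, filters, scalings and variance models, removal of the gene length trend, voom, a replicate block and each library left out.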

Additional observations from a re-analysis of the deposited data

How the results depend on the processing

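Of the 19 repair genes that fell, 18 kept direction and call under every alternative that tested them, FANCM being the exception, and of the 8 that rose, FANCF, RAD51D and ATR did. The number that fell was 18 to 19, and the number that rose 5 to 6, with each library left out in turn. Raising the filter to a mean of 5 FPKM left 14 repair genes, of which 10 fell and 1 rose (median -0.47), and 2417 genes lower and 2303 higher in all. Rescaling to TPM gave 3 that rose and a median of -0.49, beside 4723 lower and 2614 higher of all genes tested and their median of -0.12. The median of the repair genes was -0.31 with a pseudocount of 1, -0.32 with the gene length trend removed and -0.33 with no filter. Values that changed sign were all small and not called. They were FANCC (0.012), BRCA1 (0.058) and SLX4 (0.061) with the gene length trend removed, and, over the left-out libraries, BRCA1 (-0.11 to 0.011) and SLX4 (-0.14 to 0.047).

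The replicate numbers did not pair the libraries (correlations of deviations from the group means of 0.07, 0.03 and -0.06 for the 3 same-numbered pairs). With the replicate block 18 repair genes fell and 6 rose, at a median of -0.38, and FANCM (adjusted p = 0.0531, limma), ATM (0.0903) and RAD51B were no longer called. Of the 40 genes, RAD50, RAD54B and FANCB had the fewest fragments. For RAD50 and RAD54B, with most exonic bases shared, low expression and uncounted fragments cannot be told apart.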
